A study of Homo sapiens with 12 samples.

Results

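HSP90AB1, HSPH1, HSPD1, HSPE1 and DNAJC11 encode chaperones and a chaperone-related protein of the cytosol and the mitochondria. They were chosen by gene symbol and are 5 of the 1676 genes in the deposited expression table. With Tau-S199E, 4 of the 5 transcripts were lower than with Tau-WT and HSPE1 was higher, where HSPE1 and HSPD1 encode the lid and the barrel of the same folding chamber. Of all genes, 41.8% passed as lower and 48.3% as higher in that comparison (limma, adjusted p under 0.05). The HSPE1 call was lost in some of the alternative fits. The Tau-K174Q mean of DNAJC11 lay at its Tau-S199E mean, while the Tau-K174Q means of the other 4 lay between those of Tau-WT and Tau-S199E. Relative to the Tau-S199E shift, the Tau-K174Q shift was smaller than that of DNAJC11 in 86.0% of all genes. No member, and no gene of the table, passed for Tau-K174Q against Tau-WT in the limma fit with ordinary variances.

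The cells were SH-SY5Y, an established human neuroblastoma line that the labels describe as derived from a bone metastasis. They were transfected with 1 of 4 constructs of tau, a microtubule-associated protein: wild-type tau (Tau-WT, the reference), tau with glutamine for lysine (Tau-K174Q), tau with glutamate for serine (Tau-S199E), or tau with both substitutions (Tau-K174Q-S199E). Glutamine is widely used as a stand-in for acetylated lysine, and glutamate for phosphorylated serine. RNA was taken 24 h after transfection and 3′ end libraries were made from 400 ng each, with 3 libraries for each construct. An untransfected or empty-vector group is not analysed here, so each value is relative to cells that also received a tau construct, and the labels do not say what tau the host cells kept. Libraries are named by the number in their column: 1, 2 and 3 for Tau-WT, 4, 5 and 6 for Tau-K174Q, 10, 11 and 12 for Tau-S199E, and 16, 17 and 18 for Tau-K174Q-S199E.

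Chaperones hold unfolded or partly folded proteins and let them reach their native shape. HSP90 takes over clients from HSP70 with the help of co-chaperones, and HSP110 proteins recharge HSP70 with ATP. In the mitochondrial matrix HSP60 forms a barrel that HSP10 closes as a lid. Many of these genes are induced by the heat shock factor HSF1, which binds repeats of a short unit in their promoters. Tau is a known client of the HSP70 and HSP90 systems.

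The members differ in how their genes begin, and the sequences that show this are printed here from RefSeq (GRCh38.p14), which holds promoter windows of 250 bases before and 50 after the transcript start for all 5 genes, 8 windows in all. HSPD1 and HSPE1 stand head to head on chromosome 2, with 104 bases between their nearest starts (197500274 on the minus strand and 197500379 on the plus strand). Capitals mark an E-box (CACGTG), the only 1 of the searched motifs that lies in that gap, and runs of heat shock units (TTCNNGAA or GAANNTTC, overlapping matches joined). The 3 stretches are the E-box in the gap, chr2:197500345-197500374 on the plus strand, the heat shock units before the inner HSPD1 start, chr2:197500061-197500090 on the minus strand, and those before the last HSP90AB1 start, chr6:44247768-44247853 on the plus strand.
HSPD1-HSPE1 gap: gggtgattttttCACGTGtcgccagggccg
HSPD1 units: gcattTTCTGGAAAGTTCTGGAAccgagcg
HSP90AB1 units: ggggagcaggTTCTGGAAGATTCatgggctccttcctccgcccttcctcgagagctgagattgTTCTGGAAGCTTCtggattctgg
The HSP90AB1 stretch is intronic in the longer GENCODE 29 transcripts of the gene. The gap and the HSPD1 stretch fall within the annotated 5′ untranslated region of longer HSPE1 transcripts. In GENCODE 29 the whole span of HSPE1 (197499994 to 197503457) lies inside that of HSPD1 (197486581 to 197516737), on the opposite strand. The strand setting of the counting is not stated, and how reads from the overlap were assigned was not tested. A run of 3 units (TTCNNGAANNTTC or GAANNTTCNNGAA) was matched in the window of the last HSP90AB1 start and in that of the inner HSPD1 start. The other windows of these genes held no such run. Of all 35116 promoter windows, 0.49% held it on either strand. That share is per window, and HSP90AB1 and HSPD1 have several windows where the other members have a single window each. A pair of units was in 13.5% of the windows and the E-box in 7.26%. No pair was matched in the windows of HSPE1, HSPH1 and DNAJC11. The HSPE1 window reaches only 250 bases before its start, and the HSPD1 units lie beyond that edge, at -311 to -294. Their absence from the HSPE1 window thus depends on where the window ends. All motif matches here are letter matches and not binding data.

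**Figure D1:**
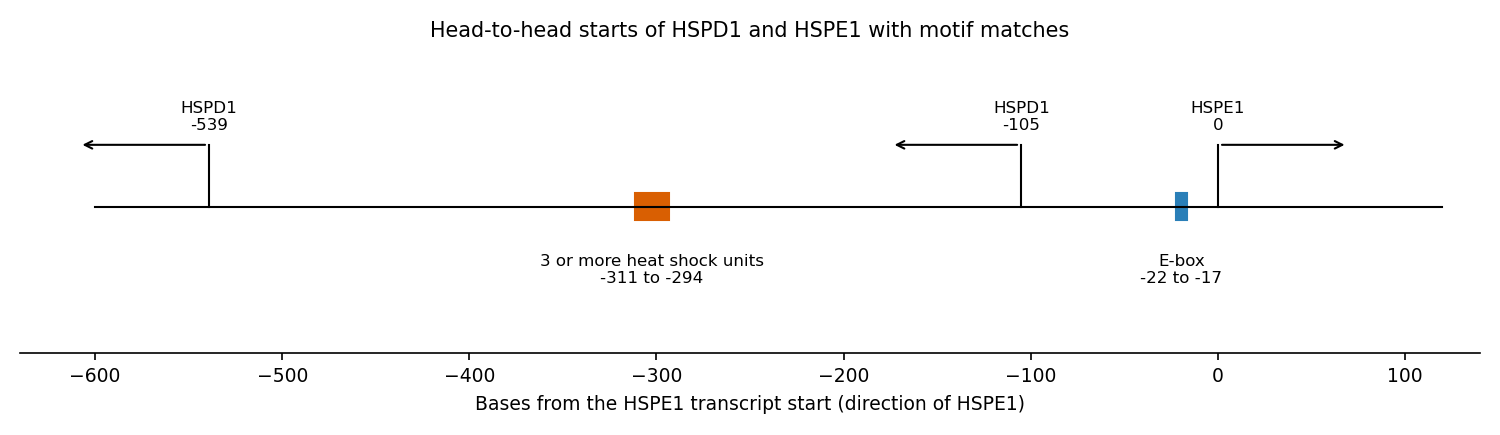
Map of the shared HSPD1 and HSPE1 promoter, in bases from the HSPE1 transcript start, with arrows for the direction of transcription. The HSPD1 starts lie at -105 and -539, the E-box at -22 to -17 and the heat shock units at -311 to -294, between the HSPD1 starts.

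The table holds standardised values, scaled gene by gene to a mean of 0 and an SD of 1 across the 12 libraries. A difference is thus given in SD units of its gene, levels cannot be compared between genes, and library depth is unknown. Tau-S199E library 12 lay 1.13 SD units (root mean square over all genes) from the mean of its group's other libraries, and Tau-K174Q-S199E libraries 16 and 18 lay 1.16 and 1.35 away, against 0.46 to 0.83 for the remaining libraries. None of the 14 adrenergic neuroblastoma genes looked for was in the table, and standardised values cannot check the cell type. Of 12 genes of the mesenchymal neuroblastoma state, 5 were in the table, and their summed value ran from -3.59 to -3.03 with Tau-WT, 1.17 to 2.47 with Tau-K174Q, 0.78 to 5.76 with Tau-S199E and -4.93 to 1.63 with Tau-K174Q-S199E. The sums with either single substitution also exceeded all those with Tau-WT, though of the 5 genes CD44, S100A6, S100A10 and CYR61 rose with Tau-S199E (1.90 to 2.20 SD units) and TAGLN2 fell by 1.87, and their part in the results was not tested. Nothing in the labels says that replicates were separate cultures, so a p here reflects only how these libraries vary, and that variation may be technical. In bulk RNA, fewer cells of a kind and less RNA per cell cannot be told apart.

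HSP90AB1, the constitutive cytosolic HSP90 (chromosome 6, 44246166 to 44253888, plus strand, GRCh38), had standardised values of 1.77, 1.25 and 1.07 in Tau-WT libraries 1 to 3, and -0.34, -0.32 and 0.04 with Tau-K174Q. It had -0.996, -0.65 and -1.65 with Tau-S199E, and 0.51, 0.06 and -0.74 with Tau-K174Q-S199E. All Tau-WT libraries were above the other 9, and Tau-S199E libraries were below all Tau-K174Q libraries. The means in falling order were 1.36 ± 0.37 with Tau-WT, -0.06 ± 0.64 with Tau-K174Q-S199E, -0.21 ± 0.21 with Tau-K174Q and -1.10 ± 0.51 with Tau-S199E (SD, n = 3 each). Tau-K174Q-S199E and Tau-K174Q overlapped in that order, and library 18 of the former lay among the Tau-S199E values.

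HSPH1, an HSP110 that acts as nucleotide exchange factor of cytosolic HSP70 (chromosome 13, 31134974 to 31162388, minus strand), stood at 0.37, 1.45 and 0.94 with Tau-WT and at -0.28, -0.25 and -0.35 with Tau-K174Q. It stood at -1.02, -1.78 and -0.98 with Tau-S199E and at 1.43, 0.60 and -0.13 with Tau-K174Q-S199E. The 3 Tau-K174Q libraries were nearly level and separate from those of every other construct, whereas Tau-WT and Tau-K174Q-S199E overlapped. The means ran from 0.92 ± 0.54 with Tau-WT through 0.63 ± 0.78 with Tau-K174Q-S199E and -0.29 ± 0.05 with Tau-K174Q to -1.26 ± 0.45 with Tau-S199E (SD, n = 3 each).

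HSPD1, the mitochondrial HSP60 (chromosome 2, 197486581 to 197516737, minus strand), had values of 0.42, 1.84 and 0.88 with Tau-WT and of -0.26, -0.14 and 0.42 with Tau-K174Q. With Tau-S199E the values were -0.79, -1.17 and -1.96, and with Tau-K174Q-S199E they were 0.38, 0.61 and -0.22. Tau-S199E libraries were the lowest 3 of the 12, and the other constructs formed an overlapping series. The means were 1.05 ± 0.73 with Tau-WT, 0.25 ± 0.43 with Tau-K174Q-S199E, 0.01 ± 0.36 with Tau-K174Q and -1.31 ± 0.60 with Tau-S199E (SD, n = 3 each).

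HSPE1, the HSP10 lid of the HSP60 barrel (chromosome 2, 197499994 to 197503457, plus strand), ran the other way, at -1.04, -0.68 and -0.43 with Tau-WT and at -0.08, -0.10 and 0.06 with Tau-K174Q. It reached 0.66, 0.35 and 2.70 with Tau-S199E and was at -1.12, 0.02 and -0.34 with Tau-K174Q-S199E. Tau-S199E libraries were the highest 3 of the 12, with library 12 far above libraries 10 and 11. The means in falling order were 1.24 ± 1.28 with Tau-S199E, -0.04 ± 0.09 with Tau-K174Q, -0.48 ± 0.59 with Tau-K174Q-S199E and -0.72 ± 0.31 with Tau-WT (SD, n = 3 each). Tau-K174Q-S199E overlapped both of its neighbours in this order.

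DNAJC11, a J-domain protein of the mitochondrial membranes tied to the MICOS and SAM complexes, which shape cristae and insert outer-membrane proteins (chromosome 1, 6634168 to 6701924, minus strand), formed a pair of levels. It had values of 1.59, 0.46 and 0.71 with Tau-WT and 1.61, 0.67 and 0.12 with Tau-K174Q-S199E. It had -0.64, -1.26 and -0.76 with Tau-K174Q and -0.92, -0.66 and -0.92 with Tau-S199E. No library of the first pair of constructs overlapped with the second pair, and within each pair the libraries were interleaved. The means were 0.92 ± 0.59 with Tau-WT, 0.80 ± 0.75 with Tau-K174Q-S199E, -0.83 ± 0.15 with Tau-S199E and last -0.89 ± 0.33 with Tau-K174Q, each as mean ± SD with n = 3.

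**Figure D2:**
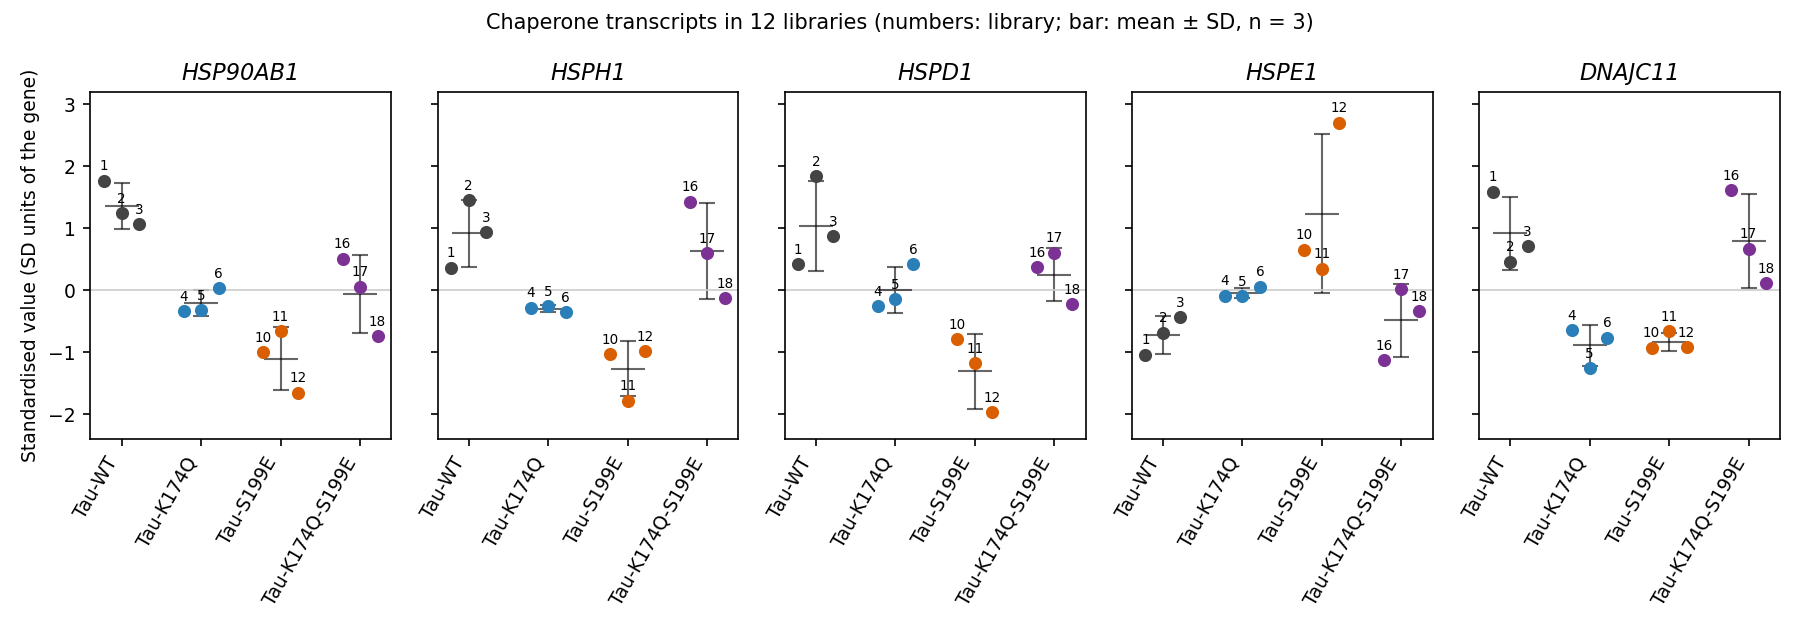
Standardised value of each chaperone transcript (vertical axis, SD units of the gene) in the 12 libraries, grouped by construct, where each point is a library with its number, and the bars give the mean and SD of 3 libraries. HSPE1 is highest and the other genes are low with Tau-S199E, and DNAJC11 is low with both Tau-K174Q and Tau-S199E.

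The effect of the serine substitution alone was read from Tau-S199E against Tau-WT. HSP90AB1 fell by 2.46 SD units (SE 0.37, adjusted p = 0.00969), HSPD1 fell by 2.35 (SE 0.45, adjusted p = 0.00981), HSPH1 fell by 2.18 (SE 0.43, adjusted p = 0.00981) and DNAJC11 fell by 1.75 (SE 0.42, adjusted p = 0.0108). HSPE1 rose by 1.96 (SE 0.59, adjusted p = 0.0182). Each p is from a linear model with a mean for each construct and the ordinary residual variance of each gene, fitted with limma to all 12 libraries, two-sided and adjusted by Benjamini-Hochberg over the 1676 genes. Of all genes 41.8% passed an adjusted p of 0.05 as lower and 48.3% as higher, so that passing is the rule in this table and the 5 of 5 members are read against that. The libraries did not overlap in 5 of 5 members and in 94.2% of all genes, and each member's two-sided exact permutation p was 0.1, the smallest that 3 libraries against 3 can give. Every gene of the authors' deposited table has an adjusted p under 0.05 for a contrast the header does not name, whose sign equals that of Tau-WT minus Tau-S199E in 1676 of 1676 genes, so these calls are not independent evidence. Library 12 carried much of the HSPE1 rise, which was 1.22 (adjusted p = 0.034) without it, and the call was lost without Tau-WT library 1 (adjusted p = 0.0502) and with the 6 libraries of these constructs only (adjusted p = 0.072).

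Tau-K174Q against Tau-WT asks the same of the lysine substitution. DNAJC11 differed by -1.81 SD units (SE 0.42, adjusted p = 0.066), HSP90AB1 by -1.57 (SE 0.37, adjusted p = 0.066), HSPH1 by -1.22 (SE 0.43, adjusted p = 0.0731), HSPD1 by -1.04 (SE 0.45, adjusted p = 0.0949) and HSPE1 by 0.68 (SE 0.59, adjusted p = 0.301). None of the members passed in the limma fit, as none of the table did (0%). At an unadjusted p under 0.05 there were 4 members and 869 genes. With moderated variances, limma's other test, HSP90AB1 (adjusted p = 0.0178) and DNAJC11 (adjusted p = 0.00954) passed, as did 59.9% of all genes. That test gave all 5 members the same SE of 0.56, so it did not weigh each member's own spread. The libraries did not overlap in 4 of 5 members and in 80.7% of all genes, and HSPD1 was the member that overlapped. Without Tau-K174Q-S199E library 18, which enters only the estimate of the spread, HSP90AB1 (adjusted p = 0.0182), HSPH1 (0.0365) and DNAJC11 (0.019) passed. In that fit 675 of the 1676 genes passed. Without library 16 DNAJC11 passed (0.0443), and 48 of all genes did. With the 6 libraries of these constructs only, all but HSPD1 passed, as did 819 of the 1676 genes. The limma adjusted p was then 0.0234 for HSP90AB1, 0.0334 for DNAJC11, 0.0437 for HSPH1 and 0.0463 for HSPE1. HSPD1 was at -0.64 without library 2.

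Tau-K174Q-S199E against Tau-WT asks what both substitutions do together. HSP90AB1 was the member farthest from Tau-WT, by -1.42 SD units (95% interval -2.28 to -0.56, p = 0.00527, adjusted p = 0.533 in the limma fit), and its libraries lay below all those of Tau-WT (two-sided exact permutation p = 0.1). HSPD1 differed by -0.79 (-0.40 without library 2), HSPH1 by -0.29, HSPE1 by 0.24 and DNAJC11 by -0.12 (95% interval -1.08 to 0.84), all with overlapping libraries. None of the members and 0% of all genes passed in the limma fit, nor did any with moderated variances. At an unadjusted p under 0.05 there were 1 member and 127 genes. The libraries did not overlap in 1 of 5 members and in 11.6% of all genes. The sign turned for HSPE1 without library 17, for HSPH1 without library 18, and for DNAJC11 without library 1 or library 18.

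Tau-K174Q-S199E against Tau-S199E asks what K174Q adds to the serine substitution. HSPH1 was higher by 1.90 SD units (SE 0.43, adjusted p = 0.0644), DNAJC11 by 1.63 (SE 0.42, adjusted p = 0.0644), HSPD1 by 1.56 (SE 0.45, adjusted p = 0.0649) and HSP90AB1 by 1.04 (SE 0.37, adjusted p = 0.071). HSPE1 was lower, at -1.72 (SE 0.59, adjusted p = 0.0688). No member passed in the limma fit and 0.119% of all genes did, while 5 members and 946 genes were under an unadjusted p of 0.05. Moderated variances passed 4 members, all but HSP90AB1 (adjusted p = 0.0798), and 68.8% of all genes. The libraries did not overlap in those same 4 members and in 43.4% of all genes. All 5 members passed once library 18 was left out, as did 1315 of the 1676 genes. The limma adjusted p then ran from 0.017 for HSPH1 to 0.0492 for HSPE1. HSPE1 was at -0.98 (adjusted p = 0.185) without library 12.

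Tau-K174Q-S199E against Tau-K174Q asks what S199E adds to the lysine substitution. DNAJC11 stood 1.69 SD units higher (SE 0.42, unadjusted limma p = 0.00377, adjusted p = 0.456) and HSPH1 0.93 higher (SE 0.43, adjusted p = 0.456), each with a two-sided exact permutation p = 0.1, and both had libraries that did not overlap. HSPD1 was at 0.25, HSP90AB1 at 0.15 and HSPE1 at -0.44, with overlapping libraries. None of the members and 0% of all genes passed in the limma fit, against 2 genes and none of the members with moderated variances. At an unadjusted p under 0.05 there were 1 member and 138 genes. The libraries did not overlap in 2 of 5 members and in 11.2% of all genes. Without library 18 the DNAJC11 difference was 2.03 (adjusted p = 0.0403), and without library 16 the HSPH1 difference was 0.53.

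Tau-S199E against Tau-K174Q sets the single substitutions side by side. HSPD1 differed by -1.31 SD units (SE 0.45, adjusted p = 0.26), HSPH1 by -0.97 (adjusted p = 0.319), HSP90AB1 by -0.89 (adjusted p = 0.297) and HSPE1 by 1.28 (adjusted p = 0.32), and in these 4 the libraries of the constructs did not overlap. DNAJC11 differed by 0.05, with a 95% interval from -0.91 to 1.02, so that a difference of up to about the SD of the gene was not excluded. No member passed in the limma fit and 0.0597% of all genes did, while none of the table passed with moderated variances. At an unadjusted p under 0.05 there were 2 members and 269 genes. The share of all genes without overlap was 36.2%. The HSPE1 difference was 0.54 without library 12.

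**Figure D3:**
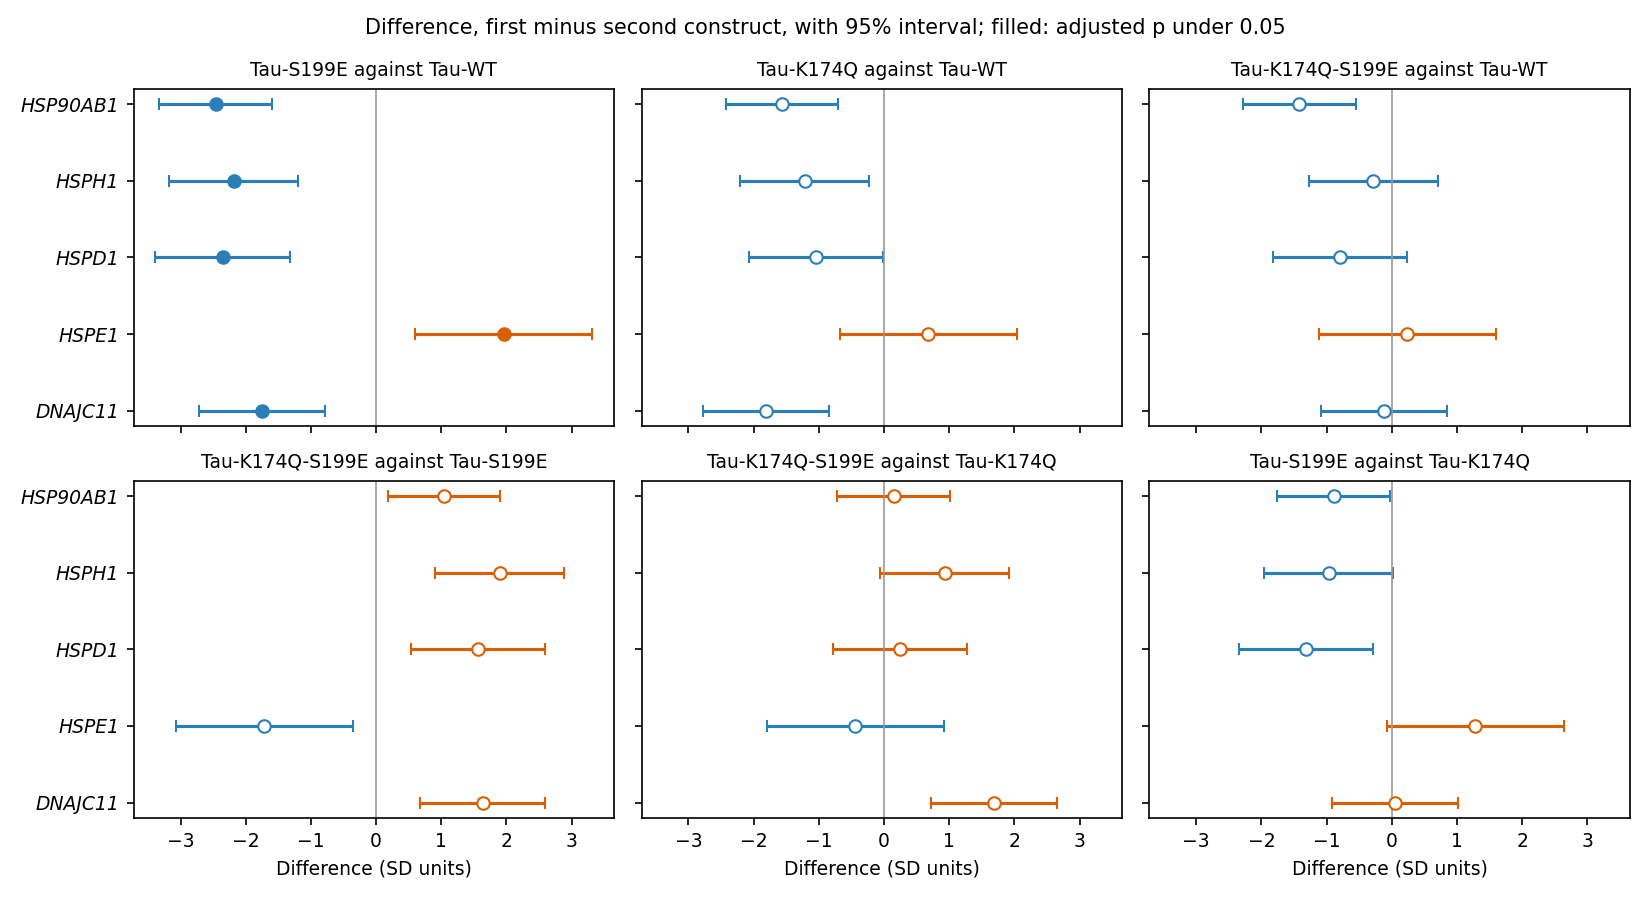
Difference between constructs (horizontal axis, SD units, first minus second construct named above each panel) with its 95% interval for the 5 transcripts, filled where the adjusted p is under 0.05. The filled points are the 5 differences of Tau-S199E from Tau-WT, and HSPE1 lies opposite the other 4 in that panel.

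The interaction is the effect of K174Q in the presence of S199E minus its effect alone. It was 3.44 SD units for DNAJC11 (SE 0.59), 3.11 for HSPH1 (SE 0.61), 2.61 for HSP90AB1 (SE 0.53) and 2.60 for HSPD1 (SE 0.63), and the limma fit gave each of these an adjusted p = 0.0182. It was -2.39 for HSPE1 (SE 0.83, adjusted p = 0.0259), a call lost without Tau-WT library 1 (adjusted p = 0.0537) or without library 16 (adjusted p = 0.056). All 5 members passed, as did 97% of all genes, and all 1676 genes in the authors' deposited table have a fold change with the sign of the interaction. Because the table is selected on a contrast of this sign that its header does not name, the calls cannot be taken as independent evidence. Whether selection alone would give them was not tested.

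The members differed in how far Tau-K174Q went along the Tau-S199E shift and in how far Tau-K174Q-S199E returned from it, both of which are ratios of differences that share Tau-WT or Tau-S199E libraries and carry no test. The Tau-K174Q shift was 34.6% of the Tau-S199E shift for HSPE1, 44.2% for HSPD1, 55.7% for HSPH1, 63.7% for HSP90AB1 and 103% for DNAJC11, against a median of 65.7% over all genes. With each library left out in turn it ran from 28.2% to 55.4% for HSPE1, 32.8% to 53.0% for HSPD1 and 49.6% to 63.2% for HSPH1, so that these genes are not separated in this share. It ran from 58.4% to 71.7% for HSP90AB1, which overlapped the range of HSPH1, and from 92.5% to 110.0% for DNAJC11. The DNAJC11 share was larger than that of 86.0% of all genes. The return with Tau-K174Q-S199E was 42.4% for HSP90AB1, with a range of 30.8% to 56.3% when each library was left out in turn. That return was smaller in 7.4% of all genes, whose median was 68.3%. The returns of HSPD1 (66.3%), HSPE1 (87.8%) and DNAJC11 (93.2%) were larger. With 1 library left out, the ranges for these and HSPH1 began above 56.3%, the lowest at 58.5% for HSPD1. Such ranges show the weight of single libraries and are not confidence limits, so they do not separate HSP90AB1 from the other members.

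**Figure D4:**
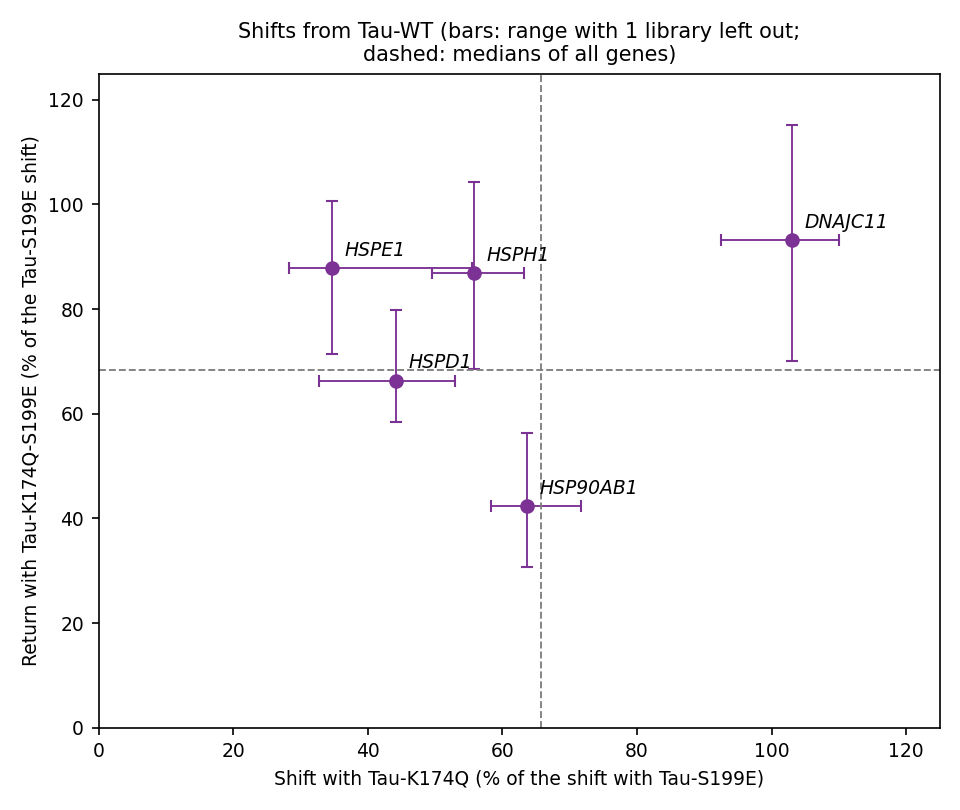
Shift from Tau-WT with Tau-K174Q (horizontal axis) against return towards Tau-WT with Tau-K174Q-S199E (vertical axis), both in percent of the Tau-S199E shift. Bars are the range when each of the 12 libraries is left out in turn and dashed lines are the medians of all genes (65.7% and 68.3%), with HSP90AB1 lowest on the vertical axis at 42.4% and DNAJC11 farthest right at 103%.

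Beside HSP90AB1, 6 of the other genes of a 27-gene list of HSP90 and its co-chaperones were in the table, and with HSP90AB1 6 of the 7 fell with Tau-S199E and none rose (median difference -2.05 SD units). All genes of the table had a median of 1.41, with 700 lower, 809 higher and 167 not passing. Without regard to sign their median was 1.99, so the size of the HSP90 list's median was ordinary in this table. STIP1, which hands clients from HSP70 to HSP90, fell by 2.21 (adjusted p = 0.012), and NUDC, a dynein regulator that also acts with HSP90, fell by 2.20 (adjusted p = 0.0116). CDC37, which recruits kinases to HSP90, fell by 2.05, SGTA by 1.92 and UNC45A, a myosin chaperone, by 1.88. DNAJC7, a J-domain co-chaperone, was at -1.28 (adjusted p = 0.0927). Of 36 client kinases of HSP90 only AURKB and AKT1 were in the table, at -2.49 and 2.17.

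Counting HSPH1 itself, the cytosolic HSP70 list of 19 genes had 6 in the table, of which 4 fell and 2 rose. HSPA4, another HSP110, fell by 2.35, the HSP70 co-chaperone ST13 by 2.04 and BAG5 by 1.67. The inducible HSP70 gene HSPA1A rose by 1.84 and BAG3, an HSP70 exchange factor of selective autophagy, by 1.73. HSPA1A has a near-identical copy, HSPA1B, so its value is uncertain. Of 9 small heat shock protein genes 2 were in the table and both rose, HSPB8 by 1.87 and HSPB11, whose protein works in intraflagellar transport, by 2.26. Genes of the TRiC ring and prefoldin moved both ways, with CCT2 up by 1.92 and CCT5 by 2.06 and PFDN5 down at -1.88.

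Counting HSPD1 and HSPE1 themselves, 6 of 24 listed mitochondrial chaperones and proteases were in the table, of which 4 fell and 2 rose (median -1.84). GRPEL1 and GRPEL2, exchange factors of mitochondrial HSP70, fell by 2.27 and 1.67, and the protease LONP1 fell by 1.999. The matrix J-domain protein DNAJA3 rose by 1.96, as HSPE1 did. DNAJC11 had 3 partners of the MICOS and SAM list in the table out of 12 genes with itself. C19orf70, which encodes the MICOS subunit MIC13, fell by 1.51 (adjusted p = 0.0434), MINOS1, which encodes MIC10, rose by 2.16 (adjusted p = 0.0116), and the metaxin gene MTX2 was at 1.67 (adjusted p = 0.0518). The 47 J-domain genes had 6 in the table, of which 2 fell and 3 rose. DNAJC5, which acts at synaptic vesicles, fell by 1.95 along with DNAJC11, and DNAJA1, DNAJA3 and DNAJC14 rose by 2.18, 1.96 and 1.58.

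Of 26 targets of HSF1, 8 were in the table, and 4 fell while 4 rose (median -0.22 SD units). Those that fell were HSP90AB1, HSPD1, HSPH1 and STIP1, and those that rose were HSPE1, DNAJA1, HSPA1A and BAG3. HSPE1 and HSPD1, neighbours on the map of the shared promoter, were in opposite groups. Of 22 chaperones of the endoplasmic reticulum 6 were in the table, of which 2 fell and 3 rose. The HSP70 of that compartment, HSPA5, was at -2.38 and SDF2L1 at -2.09, HSPA13, SDF2 and MANF rose by 2.04, 2.06 and 1.64, and SIL1 was at -1.46 and did not pass. Lists by 4 terms of the deposited table were taken after its values were seen, and 3 of them split both ways. Protein folding was annotated to 32 genes (17 lower, 12 higher, 3 not passing), unfolded protein binding to 26 (11 lower, 12 higher, 3 not passing) and chaperone binding to 24 (12 lower, 9 higher, 3 not passing). Tau protein binding was annotated to 9 genes, of which 7 fell, namely HSP90AB1, ACTB (-1.96), GSK3A (-2.18), MARK2 (-2.31), DCTN1 (-2.34), ROCK1 (-1.47) and CLU (-1.65), while PICALM rose by 1.79 and LGMN was at 1.60 (adjusted p = 0.0506).

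The signs of these lists cannot be taken as independent of the selection of the table. More genes were higher than lower with Tau-S199E, and centring each library on its median moved the median difference of all genes from 1.41 to 0.87. The split of all genes passing was then 762 lower and 608 higher in place of 700 and 809. No listed gene changed its sign under that centring, but of the genes named BAG3, HSPB8, DNAJC14, MANF and PICALM no longer passed. Without libraries 12 and 18 the named genes that no longer passed were BAG3, BAG5, HSPB8, C19orf70, TAGLN2, ACTB and PICALM. In ranks they were BAG5, DNAJC14, MANF and CLU.

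**Figure D5:**
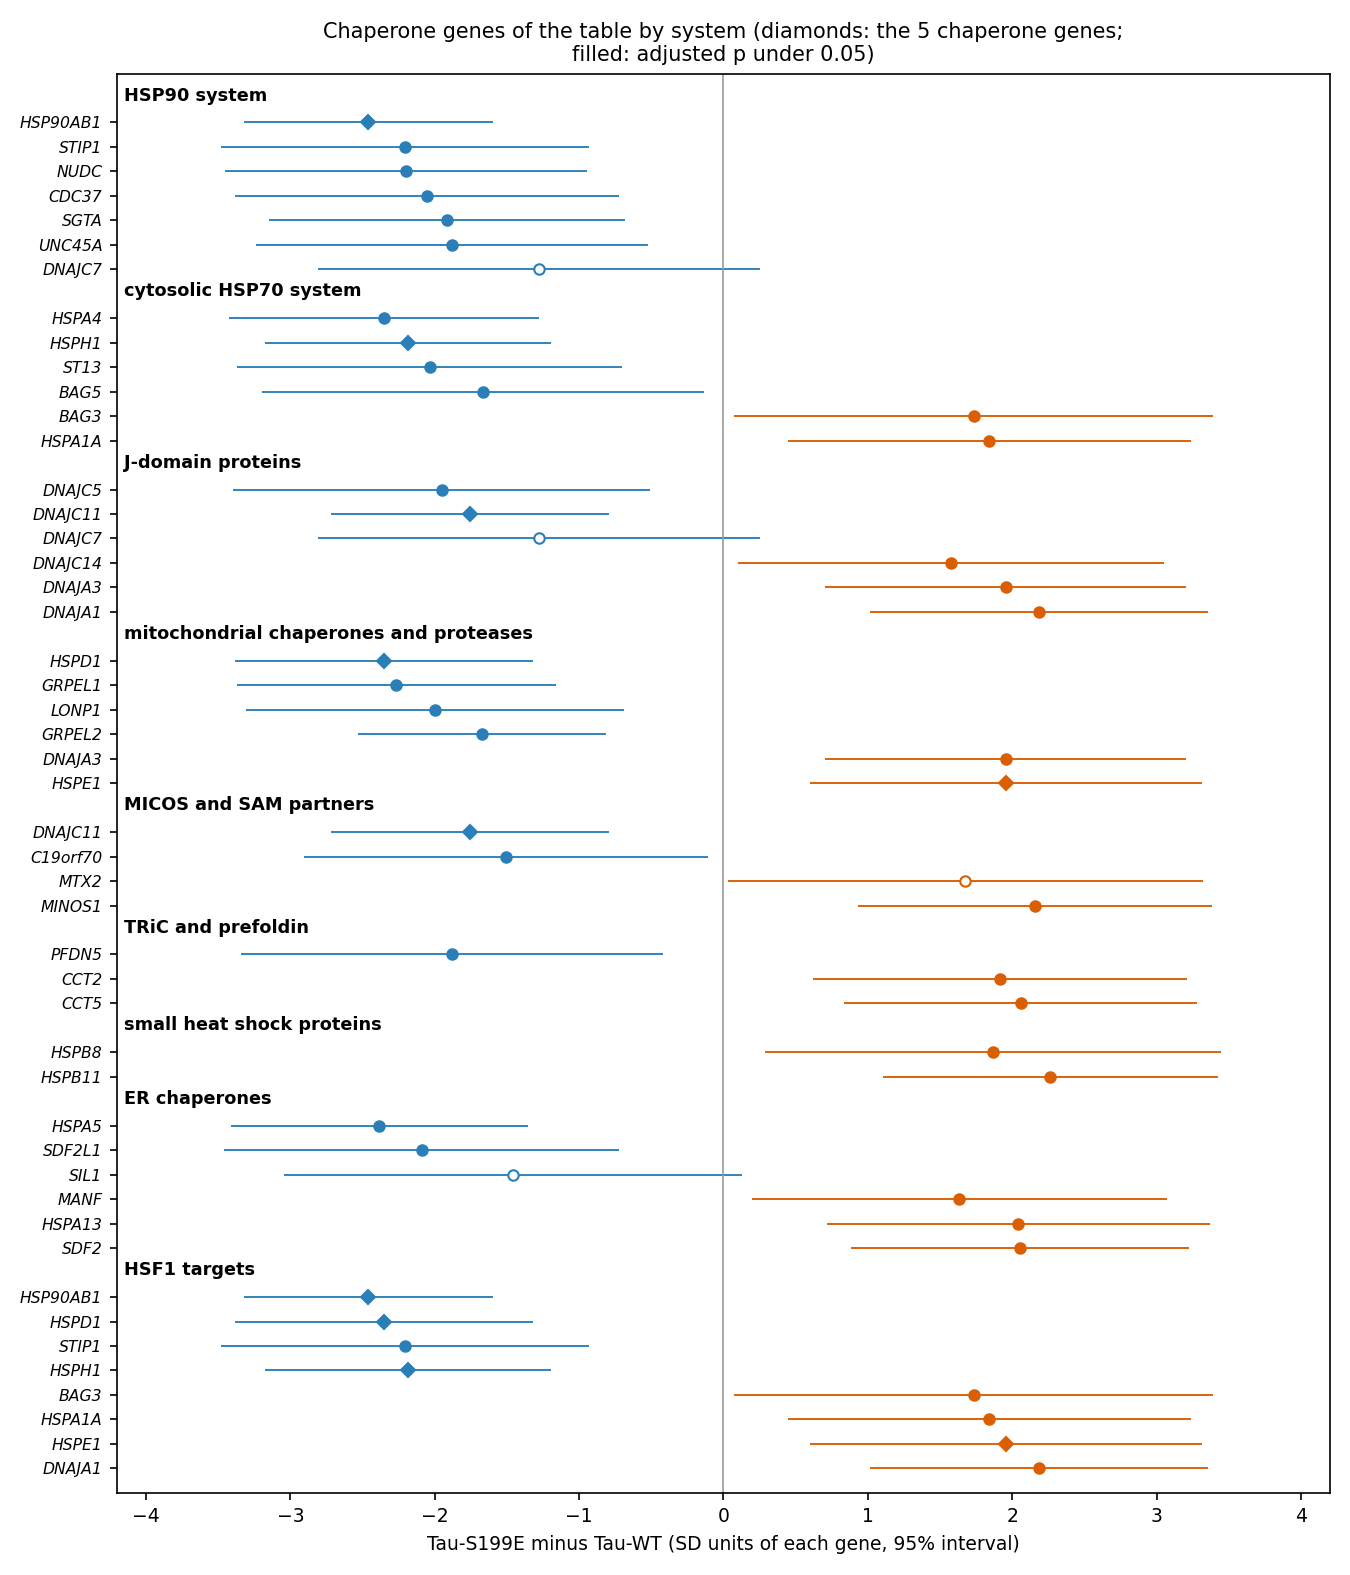
Difference of Tau-S199E from Tau-WT (horizontal axis, SD units of each gene, with 95% interval) for every listed chaperone gene in the table, grouped by system, filled where the adjusted p is under 0.05, with diamonds for the 5 chaperone genes described here. The HSP90 system lies to the left of 0, and the mitochondrial and HSF1 groups lie on both sides.

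HSPE1 has 26 pseudogenes named after it in GENCODE 29 and HSPD1 has 17, of which 2 and 0 were in the table. A further 5 pseudogenes have symbols that begin with HSP90AB, and 0 of them were in the table. HSPE1P4 and HSPE1P3 each matched bases 59 to 317 of a 570-base HSPE1 transcript at 95.8% identity over 259 aligned bases. HSPE1P4 (chromosome 12, 101873316 to 101873623, minus strand) rose with Tau-S199E by 2.16 SD units (SE 0.51, adjusted p = 0.0106). HSPE1P3 (chromosome 15, 90634725 to 90635033, plus strand) rose by 1.98 (SE 0.57, adjusted p = 0.016). Both thus moved in the direction of HSPE1. Counting can split reads between HSPE1 and such copies, so the values of HSPE1 and of these pseudogenes are uncertain, and how much they share was not tested. The same limit holds for HSPD1 and HSP90AB1, whose pseudogenes lie outside the table.

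In the authors' deposited table the log2 fold changes of the members were small beside most of the genes listed there, whose median absolute value was 1.36. They were 0.73 for HSP90AB1 (adjusted p = 0.00285), 0.58 for HSPD1 (adjusted p = 0.0167), -0.87 for HSPE1 (adjusted p = 0.0212) and 0.92 for HSPH1 (adjusted p = 0.00175) in the authors' deposited table. DNAJC11 was larger there, at 1.66 (adjusted p = 0.00102). In the authors' deposited table an absolute fold smaller than that of HSPD1 was listed for 8 genes, and one smaller than that of HSP90AB1 for 51. The pseudogenes had values of -5.39 for HSPE1P4 and -4.85 for HSPE1P3 in the authors' deposited table. Its cluster numbers put HSP90AB1, HSPD1 and HSPH1 in cluster 1 (535 genes), DNAJC11 in cluster 2 (255 genes) and HSPE1 in cluster 4 (533 genes).

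Over the 12 libraries, which the correlated genes share, HSPD1 followed HSP90AB1 (Pearson r 0.85, Spearman rho 0.86) and HSPH1 (r 0.85, rho 0.81), and ran against HSPE1 (r -0.78, rho -0.62). After the construct means were removed, r was 0.38, 0.46 and -0.35 for these pairs. Of the member pairs, HSP90AB1 and DNAJC11 had the largest r within constructs (r 0.76 over all libraries and 0.78 within constructs), and HSP90AB1 and HSPE1 ran against each other there (r -0.80 and -0.70). These are descriptions of 12 values that share libraries, and most genes of the table follow the same contrast.

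The genes whose 12 values were most like those of HSP90AB1 were SSRP1, a subunit of the histone chaperone FACT (Pearson r 0.98), the translation factor gene EIF3L (0.97) and MIEF1 (0.96), a receptor of mitochondrial fission, and SNHG15, a small nucleolar RNA host gene, was least like it (-0.98). HSPD1 was most like OGFOD1 (0.98), PPCS (0.97) and BCCIP (0.97) and least like MRFAP1 (-0.99). HSPE1 was most like the cyclin gene CCNI (0.96), the ribosomal pseudogene RPS2P7 (0.95) and HARS, a histidyl-tRNA synthetase (0.95), and least like GPX4, a lipid peroxidase (-0.95). The closest genes to HSPH1 were GSR, glutathione reductase (0.97), the importin gene KPNA1 (0.95) and the DNA polymerase gene POLK (0.94), with RRM2, a ribonucleotide reductase subunit, at -0.96. DNAJC11 was closest to the ubiquitin ligase gene RNF168 (0.95), ARHGEF19 (0.95) and PEA15 (0.93), and GBE1, the glycogen branching enzyme, was at -0.92.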

How the data were processed

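Per the submitters' processing notes, STAR 2.5.3a, RSEM 1.2.31, DESeq2 and the build GRCh38 were used. Their roles, the gene filter and the strand setting were not stated in the labels or headers. The library columns deposited by the authors are a score, standardised per gene (values from -2.58 to 3.06), so counts and depth are unknown and no count test or pseudocount applies. The log2 fold changes, the adjusted p-values (at most 0.0499) and the cluster number were deposited by the authors, per the file headers, which name no contrast. Groups come from the labels, and all 12 library columns were used. Symbols came from the file for 1585 genes, from a reference table for 90 and from GENCODE 29 for 1.

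The 6 pairs of constructs and the interaction were fitted with limma 3.58.1 (R 4.3.3) as ordinary linear models, tested on simulated data, with a threshold of 0.05 on the adjusted p. Exact permutation tests used scipy 1.17.1, and pseudogenes were aligned with BLAST+ 2.17.0. Alternatives were moderated variances, the 6 libraries compared only, ranks, centring each library on its median, leaving out each library and leaving out libraries 12 and 18. Named genes were the 5 chaperone genes, listed genes found in the table, pseudogenes named after the 5, and for each of the 5 the 3 most alike genes and the 1 least alike. Listed symbols were matched through gene IDs where the file holds an older symbol. A gene of the HSF1 target list is not reported here and was left out of its counts. The genes and lists were chosen with earlier results of these data known, and the terms from the table were taken after its values were seen.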

Additional observations from a re-analysis of the deposited data

Results flagged for a closer look

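The effect of K174Q differed with and without S199E in all 5 chaperone genes by the test of the difference itself, the interaction in the limma fit. It was 3.44 SD units for DNAJC11, 3.11 for HSPH1, 2.61 for HSP90AB1, 2.60 for HSPD1 and -2.39 for HSPE1. The Tau-K174Q means of DNAJC11, HSPH1, HSP90AB1 and HSPD1 were below those of Tau-WT and that of HSPE1 above, whereas the Tau-K174Q-S199E means of the first 4 were above those of Tau-S199E and that of HSPE1 below. Of all genes 97% passed the same test, and the table is selected on a contrast of that sign, so the 5 calls are not independent evidence.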

How the results depend on the processing

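Over the 7 comparisons the members gave 590 values under the alternatives, of which 545 kept their direction and side of the threshold, 30 passed where they had not, 4 no longer passed (all HSPE1) and 11 changed sign. The sign changes were confined to differences that had not passed. Tau-K174Q-S199E minus Tau-WT was 0.094 for HSPH1 and 0.22 for DNAJC11 without libraries 12 and 18, and with 1 library left out it ran from -0.013 to 0.56 for HSPE1, -0.69 to 0.094 for HSPH1 and -0.53 to 0.22 for DNAJC11. Tau-K174Q-S199E minus Tau-K174Q ran from -0.14 to 0.49 for HSP90AB1. Tau-S199E minus Tau-K174Q for DNAJC11 was -0.33 in ranks and -0.16 with centring, and ran from -0.13 to 0.18 with 1 library left out.

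The number of all genes passing moved more. For Tau-K174Q against Tau-WT it was 0, but 1004 with moderated variances, 819 with 6 libraries, 26 in ranks, 981 without libraries 12 and 18, and 0 to 675 with 1 library left out (675 without library 18, 48 without library 16). For Tau-K174Q-S199E against Tau-S199E it was 2, but 1153 with moderated variances, 0 with 6 libraries, 411 in ranks, 1 with centring, 730 without libraries 12 and 18, and 0 to 1315 with 1 left out (1315 without library 18). For Tau-K174Q-S199E against Tau-K174Q it was 0, but 2 with moderated variances, 451 without libraries 12 and 18, and 0 to 142 with 1 left out (142 without library 18). For Tau-S199E against Tau-K174Q it was 1, but 0 with moderated variances, 6 libraries or ranks, 2 without libraries 12 and 18, and 0 to 3 with 1 left out. For Tau-K174Q-S199E against Tau-WT it was 0, and 0 to 2 with 1 left out. For Tau-S199E against Tau-WT it was 1509, and 833 (without library 12) to 1572 with 1 left out. For the interaction it was 1625, and 1273 to 1628 with 1 left out. The cause of these moves was not tested.

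No paired analysis was possible because the columns carry library numbers that the labels do not tie to replicate numbers. The depth is unknown, so no limit from counts can be given.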
